A study of Mus musculus with 37 samples.

Results

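The mitochondrial genome of the mouse carries 37 genes, and all 37 are among the 55401 genes listed in both deposited expression tables. They were taken by name, as every gene whose symbol starts with mt-, and each was matched by its identifier to the mitochondrial chromosome (chrM, build mm10, GENCODE release M21). They comprise 2 ribosomal RNA (rRNA) genes, 13 messenger RNA (mRNA) genes and 22 transfer RNA (tRNA) genes. The annotation places 28 of them on one strand, here called the heavy-strand set, and 9 on the other, the light-strand set, which holds mt-Nd6 and 8 tRNA genes.

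Mitochondrial DNA is a small circle that the embryo receives from the egg. Each strand is transcribed as one long RNA, and the tRNAs that lie between the other genes are cut out of it, which frees the rRNAs and mRNAs. The rRNAs form the cores of the small and the large subunit of the mitochondrial ribosome, the tRNAs bring it amino acids, and the mRNAs encode core subunits of the respiratory chain and of ATP synthase, whose other subunits are encoded in the nucleus.

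The study asked how loss of BAP1, a deubiquitinase that removes ubiquitin from histone H2A, affects oocytes and early embryos. All females carried the floxed Bap1 allele on both chromosomes (Bap1 flox/flox). Controls had no Cre, and the knockout also carried Gdf9-iCre, a transgene driven by an oocyte promoter, so that the allele is deleted in the oocyte; embryos from knockout eggs are maternal knockouts. The 26 total RNA libraries cover fully grown oocytes (FGO), metaphase II eggs (MII), late 1-cell embryos (L1C), early 2-cell embryos (E2C) and late 2-cell embryos (L2C), the embryos sired by B6 sperm, with 2 control and 3 knockout libraries at each stage except E2C, which has 3 of each. The 11 poly(A) libraries cover the epiblast (EPI) and visceral endoderm (VE) of embryonic day 6.5, with 2 control and 2 knockout libraries each, and the extraembryonic ectoderm (EXE), with 1 control and 2 knockout libraries, from embryos sired by PWK sperm. The labels do not say how many oocytes or embryos each library pooled or whether replicates came from separate females, so p-values measure the spread between libraries.

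Levels are in FPKM, a fragment count scaled to gene length and to the library's total, and the read depth is unknown. Summed FPKM ran from 300668 to 430784 in the total RNA libraries and from 593705 to 704522 in the poly(A) libraries. Bap1 ran from 16.3 to 29.9 FPKM in the early control libraries and from 3.76 to 11.7 FPKM in the knockout libraries, without overlap. All 8 oocyte marker genes were present in every early library, and their sum was lower at each later stage in controls, from at least 4013 FPKM at FGO to at most 533 FPKM at L2C. Of 10 markers of cumulus or granulosa cells, the follicle cells around the oocyte, at most 2 reached 1 FPKM in a library; their sum was 2.33 to 10.0 FPKM in control and 1.90 to 4.66 FPKM in knockout libraries, mostly Cyp19a1 and Kitl, while Hsd3b1 was at 0 in 24 of 26 libraries. At L2C the oocyte markers summed to 506 and 533 FPKM in controls and to 808 to 935 FPKM in knockouts. Genes listed as late 2-cell markers summed to 235 to 327 FPKM in control and 86.8 to 214 FPKM in knockout libraries at E2C. At L2C they summed to 118 and 123 FPKM in control and 366 to 474 FPKM in knockout libraries. In controls their sum was thus higher at E2C than at L2C, so this set did not single out the late 2-cell stage. The part of these stage markers in the mitochondrial results was not tested.

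The rRNAs and their tRNA neighbours are shown first because the knockout results turn on them. The plus strand of the reference, on which these genes are annotated, reads without a gap through both stretches shown. The first runs from the end of the small-subunit rRNA gene mt-Rnr1 through the valine tRNA gene mt-Tv into the large-subunit rRNA gene mt-Rnr2 (chrM:995-1123). The second runs from the end of mt-Rnr2 through the leucine tRNA gene mt-Tl1 into mt-Nd1 (chrM:2646-2780). Capitals mark the whole tRNA, with 30 bases of the gene on either side in lower case.
mt-Rnr1, mt-Tv, mt-Rnr2: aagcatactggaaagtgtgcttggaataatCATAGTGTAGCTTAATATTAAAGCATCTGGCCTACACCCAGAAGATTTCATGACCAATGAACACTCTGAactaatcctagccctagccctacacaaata
mt-Rnr2, mt-Tl1, mt-Nd1: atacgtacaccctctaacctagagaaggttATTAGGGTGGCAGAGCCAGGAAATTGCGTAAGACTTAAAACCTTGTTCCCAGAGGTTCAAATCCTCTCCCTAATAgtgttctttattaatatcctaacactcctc
The tRNAs called higher in the knockout at more than 1 stage are mt-Td, mt-Ts2 and mt-Tl2. Shown are the aspartate tRNA mt-Td (chrM:6942-7011), which lies between mt-Co1 and mt-Co2, and the leucine tRNA mt-Tl2 (chrM:11671-11741), which overlaps the serine tRNA mt-Ts2 by 1 base. Capitals here mark the anticodon.
mt-Td: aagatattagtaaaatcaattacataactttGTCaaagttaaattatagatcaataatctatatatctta
mt-Tl2: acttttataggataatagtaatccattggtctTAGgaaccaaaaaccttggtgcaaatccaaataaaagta
The tRNA genes are 59 to 75 bases long, and how fragments were assigned to genes this short is not given in the sources used here. The libraries came from a stranded kit, but whether strand was used in counting is not given in the sources used here, and reads of overlapping neighbours may not be told apart.

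A stretch of chromosome 1 in the nuclear genome is a copy of part of the mitochondrial genome. It holds 7 annotated pseudogenes on the minus strand between chr1:24611535-24616197 that follow chrM:6381-11042 in the same order. Against their mitochondrial counterparts, Gm10222 (mt-Nd4l), Gm10925 (mt-Atp6), Gm28437 (mt-Co3), Gm28439 (mt-Nd4) and Gm28661 (mt-Co2) had 0 mismatches over 294 to 876 bases. Gm28438 differed from mt-Nd3 at 1 of 345 bases (T3C, the mitochondrial base first, counted from the first base of mt-Nd3), and Gm29216 differed from mt-Co1 at 6 of 492 bases. In all, 11 of the 37 genes lie wholly inside the copied stretch (mt-Ts1, mt-Td, mt-Co2, mt-Tk, mt-Atp8, mt-Atp6, mt-Co3, mt-Tg, mt-Nd3, mt-Tr and mt-Nd4l), mt-Co1 and mt-Nd4 lie there in part, and 24 lie outside it. How reads that match both places were counted is not given in the sources used here, so the levels of these 13 genes are uncertain, and the 24 genes outside carry the results below wherever they can.

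The levels differed sharply between the genes inside and outside that stretch. In control L2C libraries the 5 mRNAs outside it had mean levels of 1006 to 9896 FPKM (mt-Nd6 the lowest, mt-Cytb the highest), and the 6 mRNAs inside it had 75.7 to 696 FPKM (mt-Co3 the lowest, mt-Atp8 the highest). The partly copied mt-Co1 and mt-Nd4 lay within the range of the outside mRNAs, at 2834 ± 332 and 2814 ± 352 FPKM (SD, n = 2). In control FGO, too, the mRNAs outside the stretch were higher than those inside, at 190 to 551 FPKM against 10.3 to 58.7 FPKM inside. mt-Rnr1 was the highest of the 37 in control L2C at 31559 ± 2091 FPKM, followed by mt-Rnr2 at 27252 ± 2486 FPKM, mt-Cytb at 9896 ± 233 FPKM, mt-Nd1 at 4909 ± 581 FPKM and mt-Nd2 at 3873 ± 366 FPKM (SD, n = 2). In that order, continued by mt-Nd5, mt-Co1 and mt-Nd4, the 2 libraries of each gene did not overlap those of the next, except for mt-Co1 and mt-Nd4. Among tRNAs, mt-Tm (methionine), mt-Tq (glutamine) and mt-Tl1 were highest at 1914, 1305 and 1200 FPKM, and the other 19 had means of 36.9 to 376 FPKM.

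**Figure D1:**
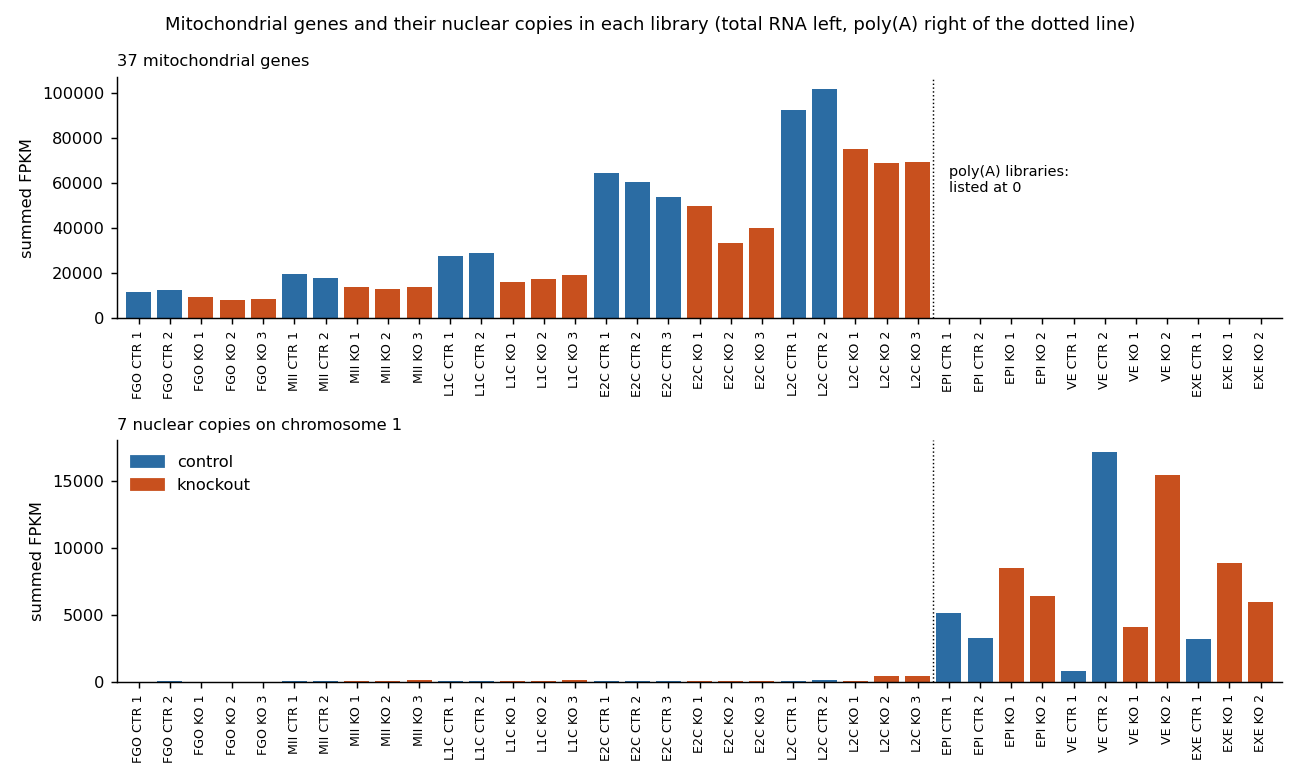
Summed FPKM of the 37 mitochondrial genes (top) and of their 7 nuclear copies on chromosome 1 (bottom) in each library; the dotted line divides the 26 total RNA libraries from the 11 poly(A) libraries. The mitochondrial genes are listed at 0 in every poly(A) library, where the copies sum to 801 to 17197 FPKM, against at most 439.7 FPKM in a total RNA library.

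In the poly(A) libraries of embryonic day 6.5, every mitochondrial gene was listed at 0 in every library, 407 of 407 values. In the total RNA libraries only 2 of 962 values were 0, both of the serine tRNA mt-Ts1, in replicate 1 of control and of knockout L1C. Among the 429 genes that averaged 100 FPKM or more over the total RNA libraries, 29 were listed at 0 in all 11 poly(A) libraries, and 22 of these 29 were mitochondrial. No level, lineage difference or knockout effect of the mitochondrial genes could therefore be given at embryonic day 6.5. The nuclear copies were listed there at high values: Gm29216 (copy of mt-Co1) ranged from 0 to 11715 FPKM and Gm10925 (copy of mt-Atp6) from 0 to 4545 FPKM, and Gm29216 was the highest gene of the library in EXE knockout replicate 1 and VE knockout replicate 2.

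Libraries of 1 group disagreed on these copies. Summed over the 7 copies, the values were 5149 and 3241 FPKM in control EPI, 8530 and 6381 FPKM in knockout EPI, 801 and 17197 FPKM in control VE, 4109 and 15439 FPKM in knockout VE, 3185 FPKM in the control EXE library, and 8870 and 5991 FPKM in knockout EXE. The 2 control VE libraries thus spanned the whole range of the lineage comparison. Between lineages, averaged over genotypes, Gm29216 had log2 fold changes of -5.53 (EXE against EPI) and -5.73 (EXE against VE). It was listed at 0 in the 1 control EXE library and at 5409 and 2846 FPKM in knockout EXE. None of the 7 copies was called different between knockout and control in any lineage by limma with Benjamini-Hochberg adjustment over all genes (lowest adjusted p = 0.330, Gm29216 in EXE, whose 1 control library was assumed to vary like the other groups). Over all genes, 0% were called in EPI and EXE and 0.00719% in VE, while 469, 251 and 248 genes had an unadjusted p under 0.05. Marker sums matched the lineage labels of EPI (1243 to 1931 FPKM of epiblast markers) and VE (8192 to 10064 FPKM of visceral endoderm markers). The EXE libraries held 506 to 581 FPKM of their own markers, with all 7 at 1 FPKM or more. They also held 3611 to 4651 FPKM of visceral endoderm markers. Only 2 of those 7 markers reached 1 FPKM in the knockout EXE libraries and 4 in the control, against all 7 in every VE library. The sum thus came from few genes, and whether other cells were present was not tested. EXE was not read further.

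**Figure D2:**
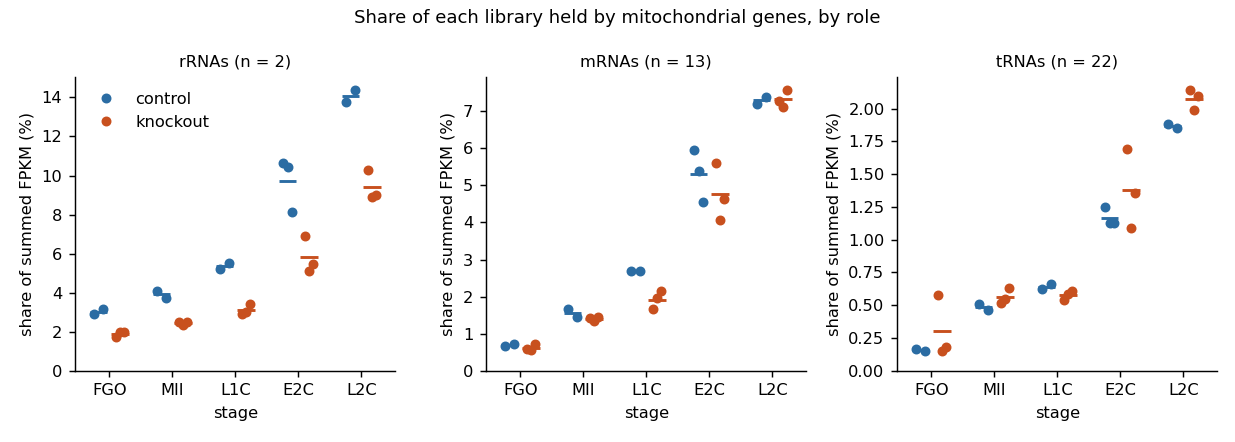
Share of each total RNA library's summed FPKM held by the 2 rRNAs, 13 mRNAs and 22 tRNAs, by stage; points are libraries and bars are group means. The rRNA share is lower in every knockout library than in every control library of its stage, and the mRNA and tRNA shares overlap at several stages.

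The mitochondrial share of the library was higher at each later stage in both genotypes. In controls the 37 genes together held 3.73 and 4.02% of summed FPKM at FGO, 6.25 and 5.66% at MII, 8.54 and 8.85% at L1C, 13.8 to 17.8% at E2C, and 22.8 and 23.7% at L2C. In knockouts the range was 2.69 to 2.87% at FGO, 4.23 to 4.57% at MII, 5.11 to 6.20% at L1C, 10.3 to 14.2% at E2C and 18.0 to 19.7% at L2C. In either genotype the libraries of each stage lay above all those of the stage before. The genotypes overlapped only at E2C. These are shares: fewer nuclear transcripts and more mitochondrial RNA cannot be told apart in them, nor can fewer cells and less RNA per cell. With each gene weighted by its length, the control mean was 1.13% at FGO and 9.38% at L2C.

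The ratio of L2C to FGO was smaller for the rRNAs than for most other genes. The control means of mt-Rnr1 and mt-Rnr2 at L2C were 6.29 times those at FGO, against 17.8 times for mt-Nd1, 18.0 times for mt-Nd2 and mt-Cytb, and 14.9 times for mt-Nd5. For mt-Nd6, the only mRNA of the light-strand set, the ratio was 5.30, the least of the 13 mRNAs. The tRNA ratios ran from 3.49 to 39.4, with a median of 16.2. The summed rRNA level was 4.38 and 4.45 times the summed mRNA level in the control FGO libraries and 1.91 and 1.95 times at L2C. At MII the controls already stood at 2.45 and 2.59 times.

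Between consecutive stages, tested by limma on log2(FPKM + 1) with Benjamini-Hochberg adjustment over all genes, 21 of 37 genes rose and 0 fell from FGO to MII in controls, where 4.22% of all genes tested were called (0.624% higher and 3.6% lower). The largest rises called were mt-Nd3 (log2 fold change 2.29, SE 0.42), mt-Tl1 (2.12, SE 0.18) and mt-Tl2 (2.05, SE 0.35). Both rRNAs missed the threshold (mt-Rnr1 0.38, adjusted p = 0.0748; mt-Rnr2 0.41, adjusted p = 0.0718), whereas all 5 mRNAs outside the copied stretch rose, mt-Cytb by 1.18 and mt-Nd1 by 1.42. In knockouts 21 genes rose and 0 fell, against 10.9% called of all genes (4.49% higher and 6.46% lower); mt-Rnr1 rose by 0.46 (adjusted p = 0.00856) and mt-Rnr2 did not pass (0.25, adjusted p = 0.103). The control count was 34 without FGO knockout replicate 1, which enters the estimate of the spread, 12 without FGO control replicate 2 or MII control replicate 1, and 13 without MII control replicate 2.

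From MII to L1C, 13 genes rose and 0 fell in controls (27.7% of all genes called, 9.69% higher and 18% lower), and 9 rose and 1 fell in knockouts (17.1% called, 5.15% higher and 12% lower). In controls both rRNAs and mt-Nd1, mt-Nd2, mt-Nd4, mt-Nd5, mt-Co1 and mt-Cytb rose, by 0.48 (mt-Rnr2) to 1.15 (mt-Nd4) on the log2 scale. mt-Nd6 did not pass in either genotype (-0.10 in controls and -0.06 in knockouts). The proline tRNA mt-Tp fell by 0.50 (SE 0.11) in knockouts. The control count was 8 without MII control replicate 2 or L1C control replicate 2, and the knockout count was 5 without L1C knockout replicate 3.

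From L1C to E2C, 36 of 37 genes rose in controls and 35 in knockouts, with 0 falling, while 48.8% and 47.6% of all genes were called (17.6% higher and 31.3% lower in controls, 16.8% and 30.8% in knockouts) and the median log2 fold change of all genes was -0.17 and -0.14. The rRNAs rose by 1.08 (mt-Rnr1) and 0.98 (mt-Rnr2) in controls and by 1.04 and 0.99 in knockouts. Genes in the copied stretch rose most in controls: mt-Ts1 by 3.37, mt-Td by 2.54, mt-Co2 by 2.17 and mt-Nd4l by 2.08; the value of mt-Ts1 rests on a library listed at 0.

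From E2C to L2C, 26 genes rose in controls and 32 in knockouts, with 0 falling. Of all genes, 54.6% were called in controls (30.7% higher and 23.9% lower) and 49.1% in knockouts (29.3% and 19.8%). All but 1 of the 24 genes outside the copied stretch rose in controls, and 1 of the 11 inside it. mt-Rnr1 rose by 0.68 and mt-Rnr2 by 0.78 in controls, and by 0.80 and 0.90 in knockouts. mt-Atp8, a subunit of ATP synthase, passed in neither genotype (0.23 and 0.38), and mt-Td passed only in knockouts (0.85, adjusted p = 0.0132; controls -0.41, adjusted p = 0.230). The difference between the genotypes' stage changes was tested for every pair of stages: 0 of 37 genes differed from FGO to MII, MII to L1C and L1C to E2C (limma; 0%, 0.0508% and 0.337% of all genes called, of which 0.0423% and 0.125% were higher and 0.00846% and 0.211% lower at the last 2). From E2C to L2C mt-Td alone differed (16.7% called, 8.81% higher and 7.89% lower).

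**Figure D3:**
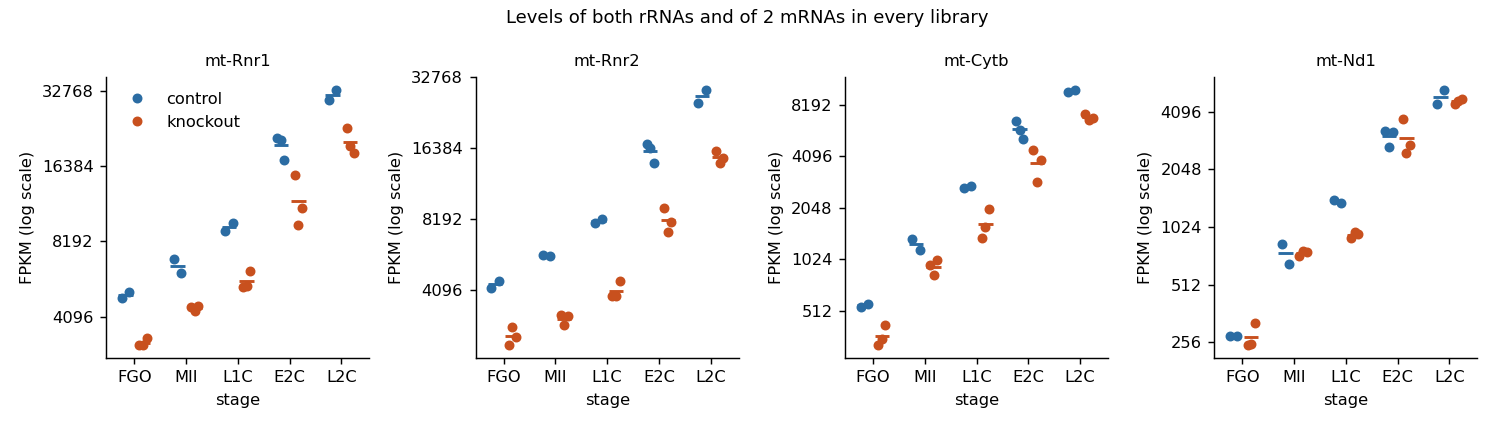
FPKM on a log axis of mt-Rnr1, mt-Rnr2, mt-Cytb and mt-Nd1 in every total RNA library, by stage; points are libraries and bars are group means. Knockout libraries lie below control libraries at all 5 stages for mt-Rnr1, mt-Rnr2 and mt-Cytb, and for mt-Nd1 only at L1C.

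Both rRNAs were lower in the knockout at all 5 stages. For mt-Rnr2 the FGO libraries had 4173 and 4496 FPKM in controls and 2394, 2854 and 2590 FPKM in knockouts. At MII they had 5770 and 5744 FPKM against 3208, 2901 and 3175 FPKM, and at L1C 7870.5 and 8179 FPKM against 3860, 3853 and 4485 FPKM. At E2C the controls had 17080, 16399 and 14185 FPKM and the knockouts 9117, 7214 and 7949 FPKM. At L2C the values were 25495 and 29010 FPKM in controls and 15930, 14225 and 14884 FPKM in knockouts. Every knockout library was below every control library of its stage.

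The log2 fold change of mt-Rnr2 was -0.73 (SE 0.13) at FGO, -0.90 (SE 0.10) at MII, -0.98 (SE 0.10) at L1C, -0.98 (SE 0.14) at E2C and -0.86 (SE 0.12) at L2C. Its adjusted p (limma, Benjamini-Hochberg over all genes) was 0.0208, 0.00287, 0.00144, 0.00667 and 0.00131. In all-gene terms, 7%, 7.84%, 8.71%, 5.87% and 19.5% of genes were called lower at these stages. Tested by limma with no filter on low values, mt-Rnr2 kept its call at L1C only. The adjusted p was then 0.236 at FGO, 0.0876 at MII, 0.166 at E2C and 0.190 at L2C. With single libraries left out, the call was kept in every fit at MII, L1C and L2C. At FGO it was lost without control replicate 1 (adjusted p = 0.148), control replicate 2 (0.188) or knockout replicate 3 (0.0858), and at E2C without control replicate 1 (0.0510), by the same limma test.

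For mt-Rnr1 the same pattern was smaller. FGO had 4864 and 5165 FPKM in controls and 3161, 3163 and 3362 FPKM in knockouts, and MII had 6949 and 6110 FPKM against 4498, 4303 and 4521 FPKM. L1C had 8982 and 9713 FPKM against 5395, 5463 and 6252 FPKM. E2C had 21222, 20857 and 17383 FPKM against 15036, 9521 and 11125 FPKM, and L2C had 30081 and 33037 FPKM against 23170, 19694 and 18512 FPKM. Again no knockout library reached a control library of its stage. The log2 fold changes were -0.64, -0.55, -0.71, -0.76 and -0.63, with adjusted p of 0.0247, 0.0205, 0.00512, 0.0371 and 0.00900 by limma. These calls were less robust: 4 of 5 leave-one-out fits at FGO, 4 of 5 at MII, 2 of 5 at L1C, 5 of 6 at E2C and 1 of 5 at L2C lost them, with adjusted p up to 0.193 by limma. All 5 calls of mt-Rnr1 were also lost with no filter on low values, with adjusted p of 0.0917 to 0.397 by limma. Over all alternatives the log2 fold change stayed between -0.94 and -0.46.

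Between the genotypes 2 other measures differed too, and their part in the rRNA values was not tested. The cumulus or granulosa marker sum was higher in every control library than in every knockout library at FGO (9.01 and 10.0 against 3.96 to 4.66 FPKM), MII, L1C and E2C. At L2C the groups overlapped, with 2.33 and 3.21 FPKM in controls and 2.23 to 2.43 FPKM in knockouts. The sum of the listed 2-cell genes given above was lower in knockouts at E2C and higher at L2C.

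**Figure D4:**
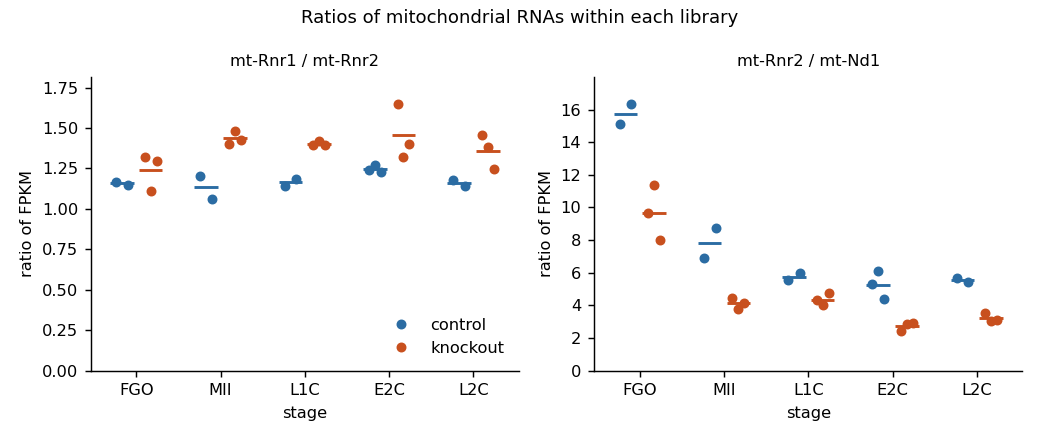
Ratio of the FPKM of mt-Rnr1 to mt-Rnr2 (left) and of mt-Rnr2 to mt-Nd1 (right) within each total RNA library, by stage; points are libraries and bars are group means. The left ratio is higher in every knockout library than in every control library from MII on, and the right ratio is lower at all 5 stages.

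Ratios within a library do not depend on how the library is scaled. They were chosen after the values were seen, so they carry no test. The ratio of mt-Rnr1 to mt-Rnr2 was 1.16 ± 0.012 in control FGO (SD, n = 2) and 1.24 ± 0.117 in knockout FGO (SD, n = 3), which overlapped. At MII it was 1.20 and 1.06 in controls and 1.40, 1.48 and 1.42 in knockouts, and at L1C 1.14 and 1.19 against 1.40, 1.42 and 1.39. At E2C it was 1.24, 1.27 and 1.23 against 1.65, 1.32 and 1.40, and at L2C 1.18 and 1.14 against 1.45, 1.38 and 1.24. The large-subunit rRNA was thus the lower of the pair, relative to control, in every knockout library from MII on.

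Against mt-Nd1, which follows mt-Rnr2 and mt-Tl1 in the heavy-strand set, mt-Rnr2 was lower at every stage. The ratio of mt-Rnr2 to mt-Nd1 was 15.1 and 16.3 in control FGO and at most 11.4 in knockout FGO, 6.91 and 8.76 against 3.78 to 4.43 at MII, 5.55 and 5.96 against 4.02 to 4.77 at L1C, 4.42 to 6.10 against 2.43 to 2.91 at E2C, and 5.45 and 5.67 against 3.06 to 3.57 at L2C. The groups did not overlap at any stage. The ratio of mt-Rnr1 to mt-Nd1 was also lower in knockouts at FGO, MII, E2C and L2C without overlap, and its groups overlapped at L1C, where the knockout mean was 0.913 times the control mean. Ratios between mRNAs differed in how they behaved. The ratio of mt-Cytb to mt-Nd1 was lower in knockouts without overlap at FGO, MII, E2C and L2C, with means 0.646 to 0.741 times those of controls, and overlapped at L1C (0.904 times). The ratio of mt-Co1 to mt-Nd1 was higher in knockouts without overlap at MII, L1C and L2C, by 1.09, 1.13 and 1.24 times, and that of mt-Nd5 to mt-Nd1 at L1C and L2C, by 1.23 and 1.21 times. Only the ratio of mt-Nd2 to mt-Nd1, among these 4 mRNA ratios, overlapped between genotypes at all 5 stages, with means from 0.733 to 0.837.

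**Figure D5:**
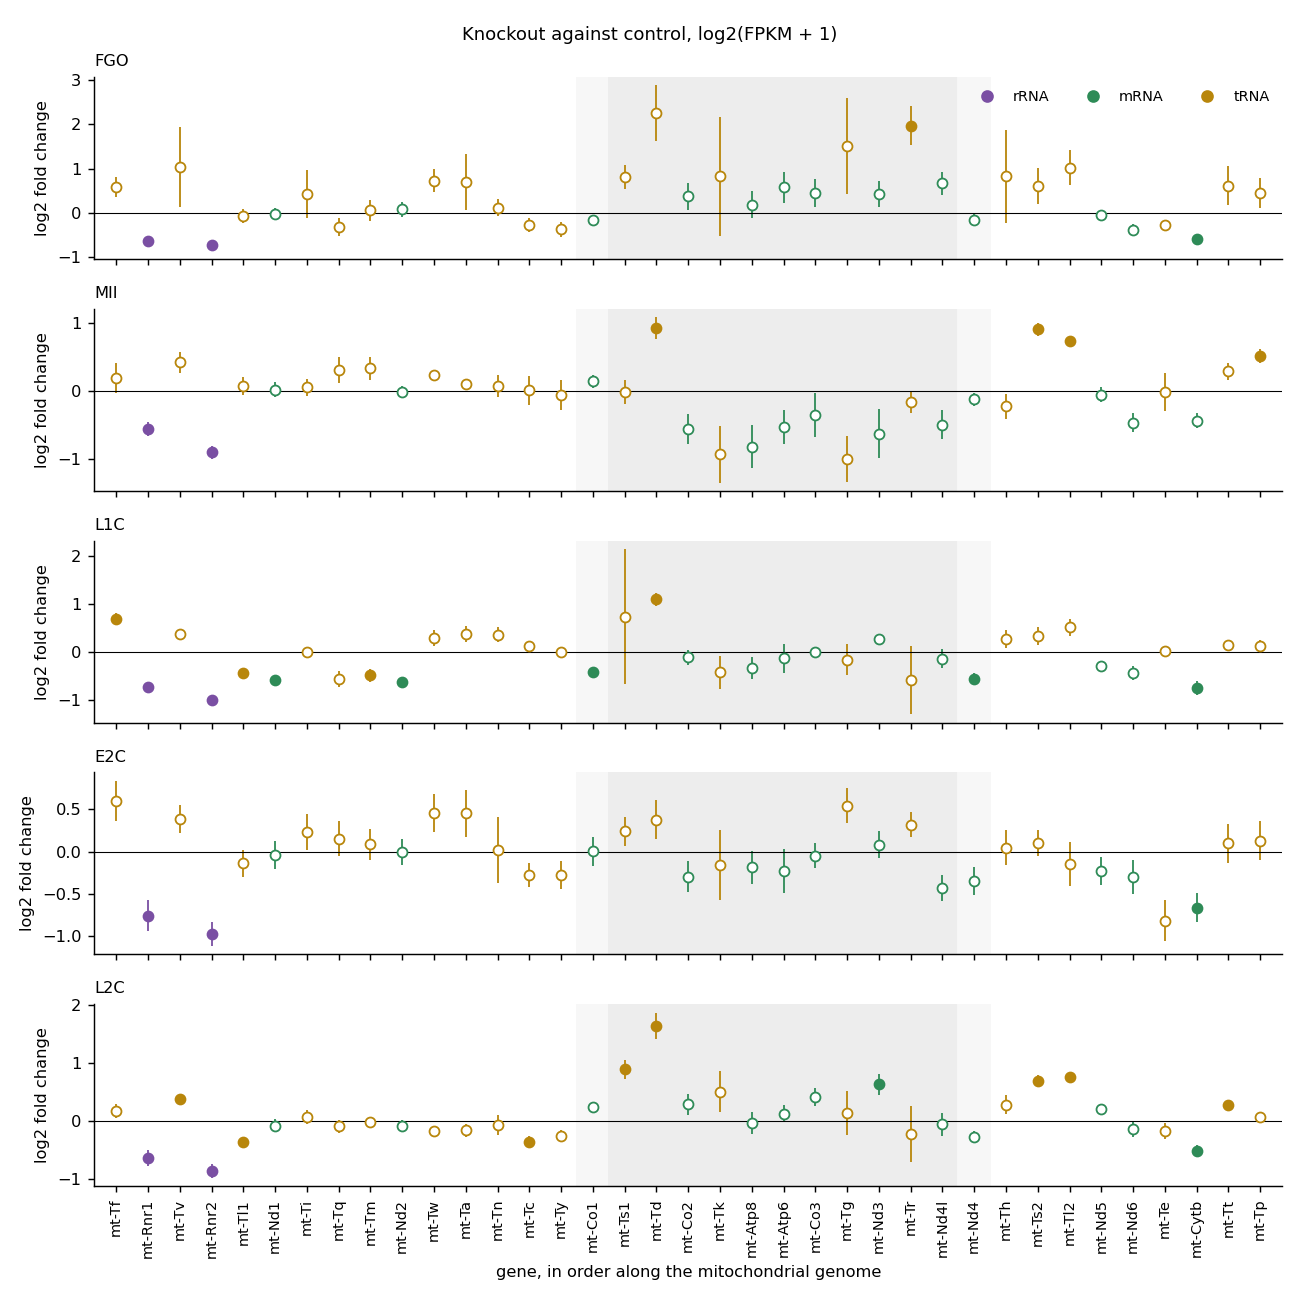
Log2 fold change of knockout against control for the 37 genes in their order on the mitochondrial genome, 1 panel per stage; bars are standard errors, colours give the role, filled points passed the adjusted p threshold of 0.05, and grey marks genes wholly (darker) or partly (lighter) in the copied stretch. Both rRNAs are filled and below 0 in all 5 panels. Of their neighbours, mt-Tv is above 0 in all 5 panels, and mt-Nd1 is below 0 in 4 and filled only at L1C.

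Over all 37 genes, the knockout differed from control in few genes at any 1 stage. At FGO 1 was higher and 3 were lower, where 8.34% of all genes were called (1.34% higher and 7% lower). At MII 4 were higher and 2 lower (12% called, 4.17% and 7.84%), and at L1C 2 were higher and 9 lower (14.9% called, 6.22% and 8.71%). At E2C 0 were higher and 3 lower (10.1% called, 4.25% and 5.87%), and at L2C 7 were higher and 5 lower (38.5% called, 19% and 19.5%). The median log2 fold change of the 37 genes was 0.43, -0.01, -0.10, 0.00 and -0.03 at the 5 stages, and that of all genes -0.01, 0.00, 0.03, 0.03 and 0.03. Single libraries moved these counts: the FGO count was 0 without either control library and 1 without knockout replicate 2 or 3; the MII count was 3 without control replicate 1 and 11 without knockout replicate 3. The E2C count was 0 without control replicate 1, 5 without knockout replicate 1 and 1 without any other library. All-gene shares for these fits are not given here. A change in these genes therefore cannot be told from a change in how many genes were called at large. In all 20 genes were called at 1 stage or more, 10 as higher and 10 as lower, with 0 called in both directions, and 17 were called at none. No all-gene share over the 5 stages together is given here, so the count of 20 is not read as a result about these genes. Of the 10 called higher, 9 are tRNAs, and the other is mt-Nd3. The 10 called lower are both rRNAs, 5 mRNAs and 3 tRNAs, none of them wholly inside the copied stretch.

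Among mRNAs, mt-Cytb, the cytochrome b subunit of complex III, was the only one called at more than 1 stage. It had 540 and 561 FPKM in control FGO and 321, 349 and 423 FPKM in knockout FGO, 1336 and 1165 against 943, 822 and 1016 FPKM at MII, and 2676 and 2768 against 1363, 1576 and 2006 FPKM at L1C. E2C had 6622, 5886 and 5201 against 4475, 2921 and 3887 FPKM, and L2C had 9731 and 10060 against 7301, 6664 and 6887 FPKM. The groups did not overlap at any stage. The log2 fold change was -0.60, -0.43, -0.74, -0.67 and -0.51, and limma's adjusted p was 0.0391, 0.0501, 0.0190, 0.0443 and 0.00541, so it passed at all stages but MII. The call was lost in 10 alternatives at FGO and 10 at E2C, median centring among them (adjusted p = 0.0705 and 0.0612 by limma), in 4 at L1C and in 3 at L2C. Of single libraries, it was lost without either control library or knockout replicate 2 at FGO (adjusted p up to 0.253), without either control library or knockout replicate 2 at L1C (up to 0.141), without any library but knockout replicate 1 at E2C (up to 0.164) and without knockout replicate 3 at L2C (0.0578), by limma.

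Of the 7 mRNAs of complex I, 6 had log2 fold changes below 0 at 4 or 5 of the 5 stages, but with TPM scaling or median centring mt-Nd1 and mt-Nd2 were below 0 at 1 or 2 stages only, mt-Nd4l (TPM scaling) and mt-Nd5 (median centring) at 3, and few passed the test: mt-Nd1, mt-Nd2 and mt-Nd4 were called lower at L1C alone, and mt-Nd4l, mt-Nd5 and mt-Nd6 at no stage. The other, mt-Nd3, was below 0 at 1 stage and was called higher at L2C. mt-Nd1 had 276.5 and 275.0 FPKM in control FGO and 247, 251 and 324 FPKM in knockout FGO, and at L2C 4498 and 5320 FPKM against 4468, 4643 and 4794 FPKM. At L1C it had 1419 and 1371 FPKM against 896, 960 and 940.4 FPKM. It fell in knockouts only there, by 0.58 (SE 0.06, adjusted p = 0.00206 by limma), and its log2 fold change was -0.08 to 0.02 at the other 4 stages, with SE of 0.11 to 0.17. At L1C mt-Nd2 and mt-Nd4 fell too, by 0.62 and 0.56, and mt-Co1, of complex IV, by 0.40, which made L1C the stage with the most mRNAs called lower, 5 of 13. Without L1C control replicate 1 the calls of mt-Nd1, mt-Nd2, mt-Nd4 and mt-Co1 were all lost (adjusted p of 0.0502 to 0.158 by limma), without control replicate 2 those of mt-Nd2, mt-Nd4 and mt-Co1 (0.0955 to 0.187), and without knockout replicate 2 that of mt-Nd4 (0.0758). The L1C count of 11 genes fell to 2 without control replicate 1 and to 4 without control replicate 2. Whether L1C differed from MII or E2C was tested for mt-Nd1 and did not pass (adjusted p = 0.165 and 0.245 by limma).

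mt-Nd6, the complex I subunit of the light-strand set, was called at no stage. Its groups did not overlap at FGO (174 and 205 FPKM in controls; 138, 132 and 167 FPKM in knockouts), MII (308 and 338 FPKM; 205, 220 and 284 FPKM) and L1C (309 and 293 FPKM; 184, 229 and 266 FPKM), and they overlapped at E2C and L2C. Its log2 fold change was -0.38, -0.46, -0.43, -0.30 and -0.14. Among the 6 mRNAs inside the copied stretch only mt-Nd3, at L2C, was called: 189 and 178 FPKM in controls and 278, 368 and 225 FPKM in knockouts, a log2 fold change of 0.63 (SE 0.18, adjusted p = 0.0250 by limma). Without either control library the call was lost (adjusted p = 0.0837 and 0.119 by limma). mt-Atp8 was called nowhere, with log2 fold changes from -0.81 (MII) to 0.18 (FGO).

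The copies on chromosome 1 also differed between genotypes in the total RNA libraries. At MII 3 of the 5 copies tested were called higher in knockouts: Gm28437 (copy of mt-Co3) by 1.51, Gm28438 (copy of mt-Nd3) by 1.35 and Gm10222 (copy of mt-Nd4l) by 0.83 on the log2 scale (adjusted p = 0.0134, 0.00151 and 0.0380 by limma). Gm28438 had 17.1 and 14.6 FPKM in control MII and 38.9, 38.6 and 48.6 FPKM in knockout MII, where mt-Nd3 itself had a log2 fold change of -0.62 (adjusted p = 0.304). None of the copies tested was called at FGO, L1C, E2C or L2C. At L1C and L2C the value of Gm28438 went with the replicate number: it was 1.36 and 16.1 FPKM in control and 1.29, 38.9 and 48.0 FPKM in knockout L1C, and 4.11 and 41.3 FPKM in control and 3.84, 205 and 211 FPKM in knockout L2C, low in replicate 1 of either genotype. With the copies added to their genes, mt-Nd3 was still called at L2C, with a log2 fold change of 1.00 in place of 0.63 (adjusted p = 0.0145 by limma).

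Among tRNAs 1 library stood apart. FGO knockout replicate 1 had a tRNA sum of 1855 FPKM, against 466 to 537 FPKM in the other 4 FGO libraries. It was the highest of the 5 FGO libraries for 17 of 22 tRNAs and for all 11 genes inside the copied stretch; the glycine tRNA mt-Tg had 478 FPKM there and 28.5 to 42.9 FPKM in the others. Without it the FGO count of genes called was 7, 4 higher and 3 lower, in place of 4, and both rRNAs and mt-Cytb were still called (adjusted p = 0.0136, 0.00984 and 0.0195 by limma). The arginine tRNA mt-Tr was the only tRNA called at FGO, at 5.88 and 4.06 FPKM in controls and 42.4, 14.2 and 17.5 FPKM in knockouts (log2 fold change 1.96, SE 0.44). Without that library its value was 1.51 (adjusted p = 0.00181 by limma), and without any other single FGO library its call was lost (adjusted p of 0.0543 to 0.300 by limma).

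mt-Td was called higher in knockouts at 3 stages. It had 1.57 and 3.51 FPKM in control FGO and 38.7, 8.95 and 9.86 FPKM in knockout FGO, 8.82 and 12.9 FPKM against 23.8, 20.6 and 19.5 FPKM at MII, and 7.40 and 7.92 FPKM against 15.3, 17.1 and 20.9 FPKM at L1C. It had 54.6, 54.5 and 40.0 FPKM against 64.1, 45.8 and 89.3 FPKM at E2C, and 46.0 and 29.3 FPKM against 95.7, 150.5 and 110.0 FPKM at L2C. The genotypes overlapped only at E2C. The log2 fold change was 2.25 at FGO (adjusted p = 0.0893), 0.93 at MII (0.0136), 1.11 at L1C (0.00302), 0.37 at E2C (0.323) and 1.64 at L2C (0.00116), all by limma, and the MII call was lost without MII control replicate 1 (0.0807). The gene lies inside the copied stretch, between the places of 2 of the 7 pseudogenes, and its level is low.

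The adjoining tRNAs mt-Ts2 (serine) and mt-Tl2 lie outside the copied stretch and were both called higher at MII and at L2C. mt-Ts2 had 10.1 and 8.82 FPKM in control MII and 19.3, 17.2 and 19.5 FPKM in knockout MII, and 68.9 and 68.1 FPKM against 103, 118 and 115 FPKM at L2C. Its log2 fold change was 0.91 (SE 0.10) and 0.69 (SE 0.10). mt-Tl2 had 19.2 and 19.5 FPKM against 32.4, 31.2 and 35.1 FPKM at MII and 151 and 157 FPKM against 252, 275 and 257 FPKM at L2C, with log2 fold changes of 0.74 (SE 0.07) and 0.76 (SE 0.08). All 4 of these calls were kept with any single library left out; that of mt-Tl2 at MII was lost in 1 fit of all 26 libraries (adjusted p = 0.210 by limma).

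The tRNAs beside the rRNAs did not share a direction. mt-Tv, between the 2 rRNA genes, had 368 and 384 FPKM in control L2C and 484, 490 and 490 FPKM in knockout L2C, a rise of 0.37 (SE 0.08, adjusted p = 0.00669 by limma), and its log2 fold change was above 0 at every stage. The call of mt-Tv was kept without any single library and lost with no intensity trend or in 1 fit of all 26 libraries. mt-Tf (phenylalanine), just before mt-Rnr1, rose at L1C by 0.70 (13.7 and 15.6 FPKM against 27.4, 22.6 and 23.3 FPKM). mt-Tl1, just after mt-Rnr2, fell by 0.44 at L1C and by 0.36 at L2C, where it had 1153 and 1247 FPKM in controls and 948, 958 and 889 FPKM in knockouts. mt-Tm, between mt-Tq and mt-Nd2, fell by 0.48 at L1C. The cysteine tRNA mt-Tc fell by 0.36 at L2C. Of the remaining tRNAs called, mt-Tp rose by 0.51 at MII, and mt-Ts1 rose by 0.89 and mt-Tt (threonine) by 0.27 at L2C. Many of these smaller calls rested on single libraries. At L1C that of mt-Tf was lost without control replicate 1 (adjusted p = 0.0814), that of mt-Tl1 without either control library or knockout replicate 2 (up to 0.204), and that of mt-Tm without either control library or knockout replicate 3 (up to 0.221), by limma. At MII that of mt-Tp was lost without either control library or knockout replicate 2 (up to 0.188). At L2C that of mt-Tl1 was lost without control replicate 2 or knockout replicate 3 (up to 0.0678), that of mt-Tc without either control library (up to 0.112) and that of mt-Tt without any 1 of the 5 libraries (up to 0.134), whereas that of mt-Ts1 was kept in each such fit, by limma.

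The nuclear partners of these genes were counted from lists of subunits and factors. The all-gene shares called higher and lower were 1.34% and 7% at FGO, 4.17% and 7.84% at MII, and 6.22% and 8.71% at L1C. They were 4.25% and 5.87% at E2C, and 19% and 19.5% at L2C. Of the 76 nuclear subunits of the respiratory chain and ATP synthase in the table, 0 of 76 tested were called at FGO, and 0 higher and 3 lower of 75 at MII. At L1C 14 of 73 were higher and 0 lower, with a median log2 fold change of 0.31 against 0.03 over all genes. Uqcrq, a complex III subunit, rose there: controls had 8.29 ± 0.587 FPKM (SD, n = 2) and knockouts 17.7 ± 2.36 FPKM (SD, n = 3). At E2C 2 were higher and 5 lower of 71, and at L2C 6 higher and 22 lower of 73, with a median of -0.23 against 0.03 over all genes; Cox4i1, of complex IV, fell there, with 16.4 ± 0.560 FPKM in controls (SD, n = 2) and 4.96 ± 1.50 FPKM in knockouts (SD, n = 3).

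Proteins of the mitochondrial ribosome, the partners of the 2 rRNAs, were called 2 higher and 2 lower of 78 at FGO, 2 and 1 of 77 at MII, 6 and 0 of 77 at L1C, 2 and 0 of 70 at E2C, and 7 and 18 of 70 at L2C. At L2C 19% of all genes were called higher and 19.5% lower, so the L2C counts of these lists are to be read against those shares. Mrps31, of the small subunit, was lower at FGO (17.7 ± 0.511 against 12.8 ± 0.340 FPKM, SD, n = 2 and 3) and at MII. Mrpl58 was higher at FGO (log2 fold change 0.61), Mrpl28 at MII (0.57) and Mrpl48 at L2C (1.87). Of the factors that transcribe and replicate mitochondrial DNA, 0 were higher and 6 lower of 17 at L2C, among them the mitochondrial RNA polymerase Polrmt (10.3 ± 0.853 against 2.60 ± 0.306 FPKM, SD, n = 2 and 3). Before L2C at most 1 gene of that list was called lower at a stage. Of 21 RNA processing and decay factors tested at L2C, 2 were higher and 4 lower; Trmt10c, a subunit of the mitochondrial RNase P that cuts tRNAs at their start, fell from 16.7 ± 1.22 to 8.84 ± 2.18 FPKM (SD, n = 2 and 3). Genes that modify or charge mitochondrial tRNAs were called at E2C (1 higher and 0 lower of 13) and L2C (2 and 6 of 24) and at no earlier stage; Trmt61b, a tRNA methyltransferase, fell at L2C, from 8.27 ± 0.631 FPKM to 0.651 ± 0.504 FPKM (SD, n = 2 and 3). Of the regulators of mitochondrial biogenesis and turnover 1 of 10 was lower at FGO, MII and L1C each, Ppargc1b at MII (6.00 ± 0.250 against 3.17 ± 0.422 FPKM, SD, n = 2 and 3) and at L1C. At E2C 2 of 10 were lower, and at L2C 3 were higher and 4 lower of 12. Fundc1 was lower at E2C (log2 fold change -1.68) and higher at L2C (1.28). Of the 2 lists before, Mtpap (RNA processing, 0.80) and Mto1 (tRNA modification, 0.67) were also called higher at L2C. At embryonic day 6.5 none of these nuclear lists had a gene called in a knockout comparison, where at most 0.00719% of all genes were called.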

How the data were processed

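The deposited tables hold FPKM, 1 table per library type, although their headers read rpkm; per the submitters' processing notes the authors used Trim Galore 0.6.6, STAR 2.7.9, StringTie 2.1.7 and the mm10 genome, and rRNA removal, strand use and the handling of multiply mapped reads are not given in the sources used here. In the deposited control epiblast replicate 1 column, 1 value below 0 was set to 0. Values were tested as log2(FPKM + 1) with limma 3.58.1 in R 4.3.3 (moderated by mean level), for genes that reached 1 FPKM in 2 or more libraries, with Benjamini-Hochberg adjustment over all genes at 0.05. Each early stage was fitted alone for the knockout effect, consecutive stages in pairs for stage changes and interactions, and embryonic day 6.5 in 1 fit of 11 libraries. The planned fits of the mitochondrial genes at embryonic day 6.5 could not be run, as all values are 0. On simulated data with 200 changed genes, the FGO fit (11212 genes) called 184, of which 9 were false, and the L2C fit (12097 genes) called 160, of which 8 were false.

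Named at each stage were both rRNAs, mt-Nd6, mt-Td, mt-Co1, mt-Nd1, mt-Cytb and mt-Atp8, and in each comparison up to 5 genes that rose and 5 that fell most among those called; the other genes called between genotypes were added after their values were seen; nuclear genes are those that moved most per list. The members, lists and rules were chosen with earlier results of these data known. Nuclear copies are genes sharing at least 50% of their 50-base words with a mitochondrial gene in the GENCODE M21 transcripts (GRCm38). Alternatives were another pseudocount, filters, scalings and fits, and leaving out each library.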

Additional observations from a re-analysis of the deposited data

Results flagged for a closer look

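The knockout effect on the aspartate tRNA mt-Td differed between the early and the late 2-cell stage. The log2 difference of the 2 effects was 1.27 (SE 0.37, adjusted p = 0.0373 by limma, Benjamini-Hochberg over all genes): knockout against control was 0.37 at E2C and 1.64 at L2C. All 3 knockout libraries exceeded both controls at L2C, and the groups overlapped at E2C. Over the alternatives the adjusted p ran from 0.0135 to 0.175, and it was above 0.05 without L2C control replicate 2 (difference 0.95), L2C knockout replicate 2 or 3, E2C control replicate 1 or 2, or E2C knockout replicate 1 or 2, as it was with no filter, no intensity trend, the block or 1 fit of all 26 libraries. The gene lies in the stretch copied on chromosome 1.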

How the results depend on the processing

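Among the named mitochondrial genes, 2058 of 2291 alternative values kept their direction and their call, 233 kept the direction without passing, and 0 changed direction. These values pool stage changes with knockout effects, so they do not give the stability of the knockout calls alone. The call of mt-Rnr1 at E2C was lost in 9 of 16 alternatives and that of mt-Cytb at FGO in 10 of 15. That of mt-Rnr2 at L1C was kept in all 15. The counts of genes called knockout against control (4 at FGO, 6 at MII, 11 at L1C, 3 at E2C, 12 at L2C) became 0, 2, 4, 0 and 5 with no filter on low values; 2 at FGO, 7 at L1C, 1 at E2C and 7 at L2C with no intensity trend; 3 at MII, 6 at L1C and 6 at L2C in 1 fit of all 26 libraries; 2 at FGO with a mean of at least 5 FPKM; and 1 at E2C with median centring. From MII to L1C the counts of 13 (controls) and 10 (knockouts) became 7 and 3 with no filter, and the knockout count 6 in the fit of all libraries. From E2C to L2C the knockout count of 32 became 21 with median centring. From L1C to E2C the knockout count of 35 became 22 among the 24 genes outside the copied stretch, as fewer genes were tested. The E2C to L2C interaction, 1 gene, became 0 with no filter, no intensity trend, the fit of all libraries or outside the stretch, and 2 with a mean of at least 5 FPKM or with the copies added to their genes; leaving out the stretch and adding the copies were chosen after seeing the data. Otherwise the cause was not tested. All-gene shares are not given for these alternatives, for fits with a library left out or for the fit with a block. Changed counts there may go with a changed number of calls over all genes.

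Leaving out 1 library gave 0 to 7 genes at FGO, 3 to 11 at MII, 2 to 13 at L1C, 0 to 5 at E2C and 9 to 14 at L2C; 12 to 34 (FGO to MII, controls), 8 to 18 and 5 to 12 (MII to L1C, controls and knockouts); and 0 to 1 and 0 to 4 in the L1C to E2C and E2C to L2C interactions.

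A fit with replicate number as a block gave counts of 0 at FGO, 13 at MII, 1 at E2C and 7 at L2C, and 0 for the E2C to L2C interaction; mt-Rnr2 then had adjusted p of 0.0901 at FGO and 0.0569 at L2C, and mt-Rnr1 0.104 and 0.194, by limma. Deviations of same-numbered libraries correlated at -0.09 to 0.17 over 11 pairs within stages and at -0.13 to 0.27 over 20 pairs across stages, so the numbers were not taken to pair them. Low correlations cannot exclude a shared batch for single genes: Gm28438 was low in replicate 1 of either genotype at L1C and L2C. A batch was not tested further.

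The mean share of summed FPKM without the gene of most FPKM was 4.20 and 3.03% (control and knockout FGO), 6.51 and 4.80% (MII), 9.67 and 6.20% (L1C), 19.1% (control E2C), and 29.7 and 22.5% (L2C). The knockout E2C mean is not given here. The gene left out was Gm23935, which held 5.98 to 23.1% of summed FPKM. The mean share weighted by length was 1.13 and 0.752% (FGO), 1.68 and 1.13% (MII), 2.51 and 1.50% (L1C), 5.56 and 3.50% (E2C), and 9.38 and 6.39% (L2C), lower in knockouts throughout.

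The read depth is unknown, controls mostly have 2 libraries, tRNAs are short, and 13 genes share sequence with chromosome 1.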

Other observations

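Through the same stages at which mitochondrial genes rose in controls, more nuclear subunits of the respiratory chain and ATP synthase fell than rose until E2C. By limma with Benjamini-Hochberg adjustment over all genes, 1 was higher and 16 were lower of 76 from FGO to MII, 1 and 59 of 75 from MII to L1C, and 3 and 42 of 75 from L1C to E2C. Over all genes, 0.624% were called higher and 3.6% lower from FGO to MII, 9.69% and 18% from MII to L1C. From L1C to E2C these shares were 17.6% and 31.3%. The median log2 fold changes of the list were -0.23, -0.88 and -0.78, against 0.00, -0.04 and -0.17 over all genes. From E2C to L2C 30 were higher and 17 lower of 76, with a median of 0.29 against 0.05. The all-gene shares there were 30.7% higher and 23.9% lower. Proteins of the mitochondrial ribosome were 0 higher and 6 lower of 78, 0 and 30 of 78, and 0 and 49 of 78 at the first 3 steps, and 26 higher and 20 lower of 74 at the last. The lists were chosen with earlier results of these data known.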
